A study of Homo sapiens with 11 samples.

Results

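ENPP1, the adenosine-forming enzyme CD73 (gene NT5E) and the other genes described here are 8 genes that make, remove or sense extracellular adenosine. They were chosen by gene symbol from the authors' deposited table, where all 8 were found among 23434 rows. ENPP1, ENTPD1 and NT5E act on nucleotides outside the cell, ADA and ADK remove adenosine, and ADORA1, ADORA2A and ADORA2B are its receptors. The 8 were proposed with results of the comparison below in view, so their fold changes and p-values describe these tumours and are not independent evidence.

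The RNA came from liver tumours that grew from PANC1 LM3 cells, a liver-metastatic derivative, of generation 3, of the established human pancreatic ductal carcinoma cell line PANC1. For every library the labels give 500000 cells placed in the spleen on day 1 and tumours taken on day 21. Tumours of the knockdown groups carried a short hairpin RNA against NPTX1, either shNPTX1_3 (3 libraries) or shNPTX1_4 (4 libraries), and control tumours carried shCTRL (4 libraries, labelled WT). All groups share the PANC1 LM3 parent line, and the labels call the libraries biological replicates but tie none to an animal, so p-values reflect library-to-library spread, some of which may be technical. The labels give neither the strain of the host nor the number of clones behind each hairpin.

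ATP that leaves a cell is broken down at its surface. ENPP1 splits ATP into AMP and pyrophosphate and also hydrolyses the STING agonist cGAMP, ENTPD1 (CD39) removes the phosphates of ATP and ADP down to AMP, and NT5E (CD73) turns AMP into adenosine. Adenosine deaminase (ADA) converts adenosine to inosine, and adenosine kinase (ADK) converts it back to AMP inside the cell. Among the receptors, A1 lowers cAMP through inhibitory G proteins, while A2A and A2B raise it through stimulatory ones, and A2B needs more adenosine than A2A to respond. In tumours this pathway is best known for restraining T cells through A2A.

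The authors' deposited table lists a mean normalized count per group, and a single contrast that sets all 7 knockdown libraries against the 4 shCTRL libraries. Since single libraries are not analysed here, the group means carry no SD, and each change has only the standard error (SE) of that contrast. Group means summed to 19997100 normalized counts in shNPTX1_3, 19323200 in shNPTX1_4 and 18734000 in shCTRL. Steps of a single read among the lowest group means gave estimates of depth, as reads on genes per library. These were 10800000 to 24000000 for shNPTX1_3, 16600000 to 26100000 for shNPTX1_4 and 13000000 to 41200000 for shCTRL. The estimates take every library of a group to share the normalized total of that group. The targeted gene NPTX1 averaged 46.5 normalized counts in shNPTX1_3, 38.4 in shNPTX1_4 and 103 in shCTRL by the authors' deposited table (0.417-fold, adjusted p of 3.65e-06 by DESeq2). The carcinoma keratin KRT19 rose by the authors' deposited table, averaging 8180, 4803 and 1272 normalized counts in shNPTX1_3, shNPTX1_4 and shCTRL (adjusted p of 6.81e-20 by DESeq2), and KRT7, KRT8 and KRT18 lay in the same order of groups. These 4 keratins were the called genes of the 6 carcinoma markers. The other 2 were not called and did not keep that order: EPCAM averaged 438, 548 and 462 normalized counts in shNPTX1_3, shNPTX1_4 and shCTRL by the authors' deposited table (adjusted p of 0.665 by DESeq2), and CDH1 averaged 620, 210.0 and 247 (adjusted p of 0.275).

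Of the 8 genes, 3 passed a DESeq2 adjusted p of 0.05 as higher in the knockdown tumours, 0 as lower, and 5 did not pass (0 lower also at an unadjusted p under 0.05). Over all 18426 named genes with an adjusted p by the authors' deposited table, 15.8% passed as higher and 11.5% as lower. Nothing is read from the count of the 8 against these shares, because the genes were proposed from this comparison. The 3 that rose were ENPP1, NT5E and ADORA2B, that is, a nucleotide-cleaving enzyme, the adenosine-forming enzyme and a receptor. The median log2 fold change was 0.16 over the 8 genes and -0.01 over all 18426.

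The starts of these 3 genes are shown because each was called higher in the knockdown comparison. Each line gives the 250 bases before the RefSeq transcription start on build GRCh38.p14, 5′ to 3′ on the gene's own plus strand, for ENPP1 at chr6:131807770-131808019, NT5E at chr6:85449833-85450082 and ADORA2B at chr17:15944880-15945129. Capitals mark matches on either strand to 1 of 3 motifs. The HIF core, bound by hypoxia-inducible factors, was searched as ACGTG. The CREB core, found in sites of CREB and ATF factors, was searched as TGACG. The GC box, bound by SP1 and related factors, was searched as GGGCGG.

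ENPP1: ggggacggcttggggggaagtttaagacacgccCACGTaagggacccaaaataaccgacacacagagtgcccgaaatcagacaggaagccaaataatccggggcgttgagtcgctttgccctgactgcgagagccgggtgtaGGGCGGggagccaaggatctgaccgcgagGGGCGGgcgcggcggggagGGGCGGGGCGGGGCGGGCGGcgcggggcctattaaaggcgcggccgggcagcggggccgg

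NT5E: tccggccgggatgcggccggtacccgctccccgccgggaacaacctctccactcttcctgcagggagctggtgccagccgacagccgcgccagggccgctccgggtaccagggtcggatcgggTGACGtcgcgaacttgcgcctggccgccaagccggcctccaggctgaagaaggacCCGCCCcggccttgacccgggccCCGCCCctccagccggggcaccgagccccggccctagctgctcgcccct

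ADORA2B: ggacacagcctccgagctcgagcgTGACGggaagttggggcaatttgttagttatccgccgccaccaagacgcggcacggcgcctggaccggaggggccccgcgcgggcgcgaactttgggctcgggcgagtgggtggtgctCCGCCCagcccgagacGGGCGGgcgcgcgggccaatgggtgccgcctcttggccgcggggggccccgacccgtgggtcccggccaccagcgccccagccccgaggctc

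ENPP1 holds 1 HIF core, on the minus strand at positions -217 to -213 from the start, and 6 GC boxes, of which 4 overlap in 1 run from -60 to -41. NT5E and ADORA2B each hold 1 CREB core, at -127 to -123 and at -226 to -222, and 2 GC boxes each. Of 35116 promoters of the same length in the RefSeq table, 18.5% hold the HIF core, 21.2% the CREB core and 42.6% the GC box. The HIF and CREB cores share bases where they meet, which occurs in none of the 3 windows. The windows were rich in G and C, at 68.8% in ENPP1 and 75.2% in both NT5E and ADORA2B, against a median of 58.0% over all promoters. Both the GC box and the CREB core also stand before genes that did not pass the test: ADA holds 5 GC boxes, and ENTPD1 and ADK hold the CREB core in at least 1 of their promoters. RefSeq promoters were matched for 7 of the 8 genes, of which ADK and ENTPD1 have more than 1. A match describes the letters of the window and does not show binding.

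ENPP1 had the largest fold change of the 8. By group, the authors' deposited table gives it means of 1473 normalized counts in shNPTX1_3, 1684 in shNPTX1_4 and 668 in shCTRL. Both hairpin groups were above control, by 2.20-fold with shNPTX1_3 and 2.52-fold with shNPTX1_4 from the group means with a pseudocount of 1. The knockdown comparison of the authors' deposited table gave a log2 fold change of 1.26 with an SE of 0.08 (adjusted p of 2.84e-47 by DESeq2), or 2.40-fold with a 95% interval of 2.14 to 2.69. By its adjusted p ENPP1 stood at rank 9 of 18426 genes by the authors' deposited table. At the recovered depths the ENPP1 means rest on about 3472 reads in shNPTX1_3, 6921 in shNPTX1_4 and 3781 in shCTRL, so counting error is small beside this change. ENPP1 was the only one of the 8 at least 2-fold apart from control in either hairpin group. Over the 14131 named genes at 2 CPM (counts per 1000000 of the mean total) or more, 2.95% were at least 2-fold higher with shNPTX1_3 and 1.47% with shNPTX1_4.

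**Figure D1:**
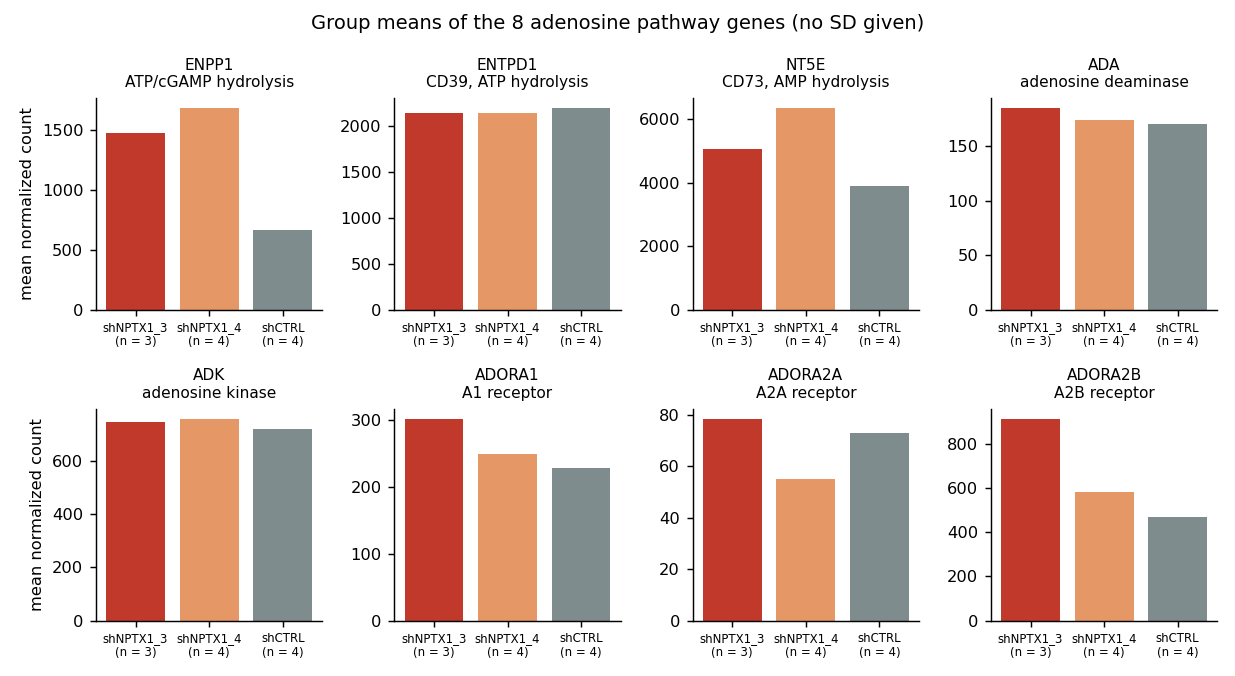
Bars give the authors' mean normalized count (vertical axis, from 0, a separate scale per panel) of each gene in shNPTX1_3 (3 libraries), shNPTX1_4 (4 libraries) and shCTRL (4 libraries), with no error bars because the table gives no SD. ENPP1, NT5E and ADORA2B were higher in both hairpin groups than in shCTRL, while ENTPD1, ADA and ADK were nearly level across the groups.

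NT5E, which codes for CD73, had the highest mean normalized count of the 8 in every group. By group, the authors' deposited table gives it means of 5046 normalized counts in shNPTX1_3, 6347 in shNPTX1_4 and 3899 in shCTRL. Both hairpin groups lay above control, at 1.29-fold with shNPTX1_3 and 1.63-fold with shNPTX1_4. NT5E rose by 0.57 on the log2 scale by the authors' deposited table (SE 0.14, adjusted p of 6.58e-04 by DESeq2), or 1.49-fold with a 95% interval of 1.22 to 1.80. Its level stood at the 96.7 percentile of the 18426 tested genes.

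ENTPD1, the CD39 enzyme upstream of CD73, did not pass the test. By group, the authors' deposited table gives it means of 2147 normalized counts in shNPTX1_3, 2145 in shNPTX1_4 and 2197 in shCTRL. The 3 group means lay within a narrow band, and the log2 fold change was -0.03 with an SE of 0.06 by the authors' deposited table (adjusted p of 0.708 by DESeq2). The 95% interval of the ratio, 0.900 to 1.06, excludes a change of the size seen for NT5E or ENPP1. The antisense gene ENTPD1-AS1, which overlaps ENTPD1 on the other strand, fell by 0.42 on the log2 scale by the authors' deposited table (SE 0.14, adjusted p of 0.0122 by DESeq2). Its group means there were 255 normalized counts in shNPTX1_3, 289 in shNPTX1_4 and 367 in shCTRL. The sources used here do not give the strand setting, so reads from shared stretches of ENTPD1 and ENTPD1-AS1 cannot be told apart.

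The adenosine-removing enzymes did not pass the test. ADA averaged 185 normalized counts in shNPTX1_3, 174 in shNPTX1_4 and 171 in shCTRL by the authors' deposited table. Its fold change there was 1.04 with a 95% interval of 0.868 to 1.25 (adjusted p of 0.771 by DESeq2). ADK averaged 746 normalized counts in shNPTX1_3, 759 in shNPTX1_4 and 721 in shCTRL by the authors' deposited table, with a fold change of 1.04 and a 95% interval of 0.930 to 1.16 (adjusted p of 0.651 by DESeq2). For both genes the sign of the small log2 difference turned negative when each group was scaled to the same total, to -0.0044 for ADA and -0.01 for ADK. PKIG overlaps ADA on the other strand and missed the threshold by the authors' deposited table (adjusted p of 0.237 by DESeq2).

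Among the receptors, ADORA2B, the A2B receptor, rose. It averaged 914 normalized counts in shNPTX1_3, 581 in shNPTX1_4 and 469 in shCTRL by the authors' deposited table. Both hairpin groups were above control, but not evenly, at 1.95-fold with shNPTX1_3 and 1.24-fold with shNPTX1_4. The log2 fold change was 0.62 with an SE of 0.19 by the authors' deposited table (adjusted p of 0.00702 by DESeq2), or 1.54-fold with a 95% interval of 1.19 to 2.00. This wide interval covers the 7 knockdown libraries taken as 1 group, and the difference between the hairpins could not be tested from group means. The 4 keratins of the carcinoma list had the same order of groups as ADORA2B, where KRT8 averaged 30512, 14002 and 8293 normalized counts in shNPTX1_3, shNPTX1_4 and shCTRL by the authors' deposited table, while EPCAM and CDH1 did not. Their part in the ADORA2B values was not tested.

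ADORA1, the A1 receptor, averaged 302 normalized counts in shNPTX1_3, 249 in shNPTX1_4 and 228 in shCTRL by the authors' deposited table. Its ratio of 1.19, with a 95% interval of 0.927 to 1.52, did not pass the test (adjusted p of 0.318 by DESeq2). ADORA2A, the A2A receptor, averaged 78.4 normalized counts in shNPTX1_3, 54.9 in shNPTX1_4 and 73.0 in shCTRL by the authors' deposited table. The hairpin groups lay on opposite sides of control, at 1.07-fold and 0.755-fold, and the comparison did not pass the test (0.881-fold, 95% interval 0.642 to 1.21, adjusted p of 0.596 by DESeq2). ADORA2A had the lowest mean of the 8, with about 185, 226 and 413 reads behind its means in shNPTX1_3, shNPTX1_4 and shCTRL. The intervals of ADORA1 and ADORA2A both include the fold change of NT5E or its inverse near their ends, so changes of that size are not excluded for these receptors. The readthrough gene SPECC1L-ADORA2A shares its strand with ADORA2A, and ADORA2A-AS1 lies on the other strand, so the ADORA2A counts are uncertain. The remaining receptor gene, ADORA3, was near 0, averaging 0.376, 0.879 and 1.30 normalized counts in shNPTX1_3, shNPTX1_4 and shCTRL by the authors' deposited table, and has no adjusted p there.

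**Figure D2:**
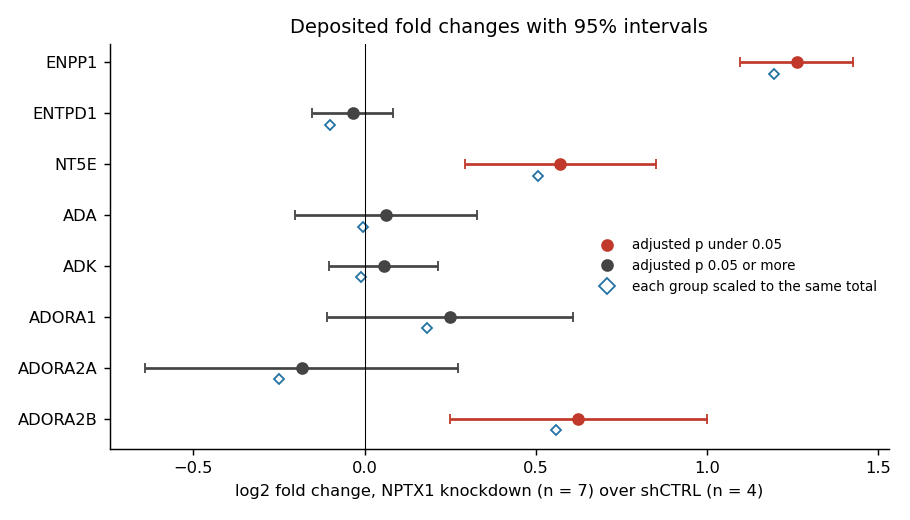
Points give log2 fold changes from the authors' deposited table, 7 knockdown libraries over 4 shCTRL libraries, with 95% intervals from the SE, and diamonds give the value after scaling all groups to 1 total. The intervals of ENPP1, NT5E and ADORA2B lie above 0, and those of the other 5 genes span 0.

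Set per kilobase of exon, the 8 genes could be ordered within each group by level. With shNPTX1_3 the order was NT5E at 1189 normalized counts per kilobase, then ADORA2B at 527, ENTPD1 at 393, ADK at 306, ENPP1 at 198, ADA at 120.1, ADORA1 at 78.1 and ADORA2A at 26.5. In shNPTX1_4 tumours NT5E stood at 1496 normalized counts per kilobase, ENTPD1 at 393, ADORA2B at 335, ADK at 311, ENPP1 at 226, ADA at 113, ADORA1 at 64.5 and ADORA2A at 18.6. In shCTRL tumours NT5E stood at 919 normalized counts per kilobase, ENTPD1 at 403, ADK at 296, ADORA2B at 270.5, ADA at 111, ENPP1 at 89.7, ADORA1 at 58.9 and ADORA2A at 24.7. NT5E thus led in all 3 groups, and ADORA2B stood highest of the adenosine receptor genes in all 3. These are levels of RNA, not of protein. ENPP1 lay above ADA in both hairpin groups and below it in shCTRL, and ADORA2B lay above ADK in both hairpin groups and below it in shCTRL. Lengths are unions of exons in GENCODE release 29, and with the longest transcript instead ADK stood above ADORA2B in shNPTX1_4 (342 against 335 normalized counts per kilobase). Without SDs it was not tested whether neighbours in these orders differ.

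ENTPD1 and ADORA2A are also known from leukocytes and blood vessels, so markers of those cells were read beside them. The markers are human genes, while the submitters' processing notes also name a mouse build and do not say how host reads were handled, so these values cannot show how many host leukocytes or vessel cells the tumours held. PTPRC (CD45) averaged 43.2, 41.7 and 50.2 normalized counts in shNPTX1_3, shNPTX1_4 and shCTRL by the authors' deposited table, CD2 was at 0 in every group, and CD3E was at 1.23 in shNPTX1_3 and at 0 in shNPTX1_4 and shCTRL. CD68, which many cell types express in lysosomes, averaged 794, 635 and 697 normalized counts by the authors' deposited table in the same order of groups. The 8 leukocyte markers summed to 953, 739.5 and 827 normalized counts, mostly of CD68, so the sums are not a measure of leukocytes. Of the 5 with an adjusted p, 0 passed the test by DESeq2 (0 at an unadjusted p under 0.05). Among endothelial markers KDR had the highest means, at 279, 253 and 218 normalized counts in shNPTX1_3, shNPTX1_4 and shCTRL by the authors' deposited table. PECAM1 averaged 105, 110 and 142 normalized counts in the same order of groups by the authors' deposited table, with a log2 fold change of -0.41 (adjusted p of 0.0911 by DESeq2), and VWF averaged 3.68, 1.33 and 0.966. The 6 endothelial markers summed to 424, 369 and 371, with 0 of 5 tested called by DESeq2 (1, PECAM1, at an unadjusted p under 0.05). The hepatocyte marker ALB was under 1 normalized count in every group, and the 6 hepatocyte markers summed to 109, 57.1 and 51.8. Of the hepatocyte list 1 of 3 tested genes was called, APOA1, which averaged 49.3, 21.9 and 9.99 normalized counts in shNPTX1_3, shNPTX1_4 and shCTRL by the authors' deposited table. The 6 fibroblast and stellate cell markers summed to 845, 1143 and 883 normalized counts, mostly of COL1A1. Of these 6, 1 was called higher, LUM, and 0 lower by DESeq2 (2 higher and 1 lower at an unadjusted p under 0.05). The lower one, COL1A2, averaged 17.8, 17.5 and 74.3 normalized counts in shNPTX1_3, shNPTX1_4 and shCTRL by the authors' deposited table (adjusted p of 0.0559 by DESeq2). The part of such cells in the ENTPD1 and ADORA2A values was not tested. In bulk tumours, fewer cells of a type and less RNA per cell cannot be told apart.

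The hairpins were next set side by side over the wider purine pathway. Both ratios use the same shCTRL libraries, so they are not independent. ENPP1 had log2 ratios of 1.14 with shNPTX1_3 and 1.33 with shNPTX1_4, NT5E had 0.37 and 0.70, and ADORA2B had 0.96 and 0.31. NT5E thus lay further from control with shNPTX1_4, and ADORA2B with shNPTX1_3. ADORA1 had 0.41 and 0.13, ADORA2A 0.10 and -0.41, ADA 0.12 and 0.03, ADK 0.05 and 0.07, and ENTPD1 -0.03 and -0.03.

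**Figure D3:**
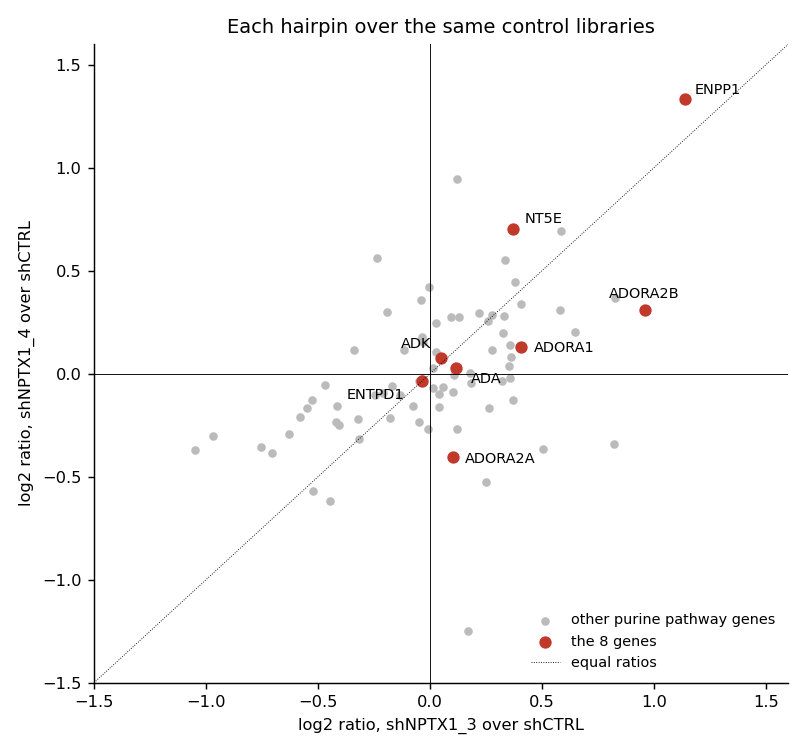
Each point is a purine pathway gene at 2 CPM or more, with its log2 ratio to shCTRL for shNPTX1_3 (horizontal) and shNPTX1_4 (vertical), from group means with a pseudocount of 1. ENPP1 lies farthest out at 1.14 and 1.33, ADORA2B falls below the line of equal ratios, and NT5E falls above it.

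The genes whose pair of hairpin ratios lay nearest to that of ENPP1, among 14130 others at 2 CPM or more, were MEG8, CBWD6 and KCNT2, at distances of 0.03, 0.03 and 0.04 on the log2 scale. MEG8 is a noncoding RNA on chromosome 14, KCNT2 a sodium-activated potassium channel on chromosome 1, and CBWD6 has near-identical copies that make its counts uncertain. For NT5E the nearest were MPI, the mannose phosphate isomerase, TMEM185A and CRIM1, at distances of 0.0045, 0.02 and 0.04. These likenesses rest on 3 group means only.

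Beyond the 8, 110 genes of 9 purine lists were looked up, of which 109 were in the table and 96 had an adjusted p. Of these, 12 passed as higher and 8 as lower by the authors' deposited table (DESeq2 adjusted p under 0.05), with a median log2 fold change of -0.05. These calls are 20.8% of the 96, against 27.3% called in either direction over all 18426 genes. Equal group totals lower every log2 fold change by 0.07, and then 8 were called higher and 12 lower, while ENPP1, NT5E and ADORA2B kept their calls. Over all named genes 2132 (11.6%) were then called higher and 3017 (16.4%) lower, against 2913 (15.8%) and 2114 (11.5%) with the deposited scaling. The counts per list below, with the deposited scaling, stand beside these last shares. Since the lists were chosen with earlier results known, nothing is read from the counts against the shares.

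Among the other extracellular nucleotide-hydrolysing enzymes 1 of 13 tested genes rose and 0 fell by DESeq2 (2 lower at an unadjusted p under 0.05). ENPP4, a relative of ENPP1 on the cell surface, averaged 199 normalized counts in shNPTX1_3, 353 in shNPTX1_4 and 183 in shCTRL by the authors' deposited table (log2 fold change 0.66, SE 0.22, adjusted p of 0.0132 by DESeq2). Its mean was near control with shNPTX1_3 and higher with shNPTX1_4. ENPP3, another member of the family, missed the threshold by the authors' deposited table (log2 fold change -0.06, SE 0.19, adjusted p of 0.858 by DESeq2). ENTPD2, ENTPD3 and ENTPD8, the other surface enzymes like CD39, were low, averaging at most 12.7, 3.64 and 24.6 normalized counts by the authors' deposited table.

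The nucleotidases inside the cell rose in 3 of 12 tested genes and fell in 0 by DESeq2 (6 higher and 0 lower at an unadjusted p under 0.05). ENTPD4, a Golgi enzyme of the CD39 family, averaged 1007 normalized counts in shNPTX1_3, 1083 in shNPTX1_4 and 671 in shCTRL by the authors' deposited table (log2 fold change 0.64, SE 0.10, adjusted p of 2.4e-09 by DESeq2). ENTPD6 rose by 0.41 and the cytosolic purine nucleotidase NT5C2 by 0.25 by the authors' deposited table (adjusted p of 0.0213 and 0.00374 by DESeq2). The ENTPD6 call was lost with equal totals (adjusted p = 0.0587).

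Of 16 other genes of adenosine and AMP conversion, 2 rose and 1 fell. ADA2, the secreted adenosine deaminase, fell, averaging 33.4 normalized counts in shNPTX1_3, 53.6 in shNPTX1_4 and 66.3 in shCTRL by the authors' deposited table (log2 fold change -0.55, SE 0.22, adjusted p of 0.0424 by DESeq2). AHCYL1, a relative of the enzyme that splits adenosylhomocysteine, rose by 0.22 by the authors' deposited table, and its call was lost with equal totals. DPP4, the surface protein that binds ADA, averaged 36.8, 17.4 and 14.8 normalized counts in shNPTX1_3, shNPTX1_4 and shCTRL by the authors' deposited table and did not pass the test (adjusted p of 0.173 by DESeq2). Of 6 tested nucleoside transporters 0 rose by DESeq2, also at an unadjusted p under 0.05, and 1 fell: the monoamine and adenosine transporter SLC29A4 fell by 0.41 by the authors' deposited table (adjusted p of 0.00689 by DESeq2). SLC29A1, the main equilibrative transporter, did not pass the test by the authors' deposited table (log2 fold change 0.16, SE 0.12, adjusted p of 0.335 by DESeq2).

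Genes that release ATP or handle pyrophosphate and phosphate rose in 4 of 11 tested cases and fell in 1. PANX1, a channel through which ATP leaves cells, averaged 1890.0 normalized counts in shNPTX1_3, 2199 in shNPTX1_4 and 1499 in shCTRL by the authors' deposited table (log2 fold change 0.47, SE 0.11, adjusted p of 3.26e-04 by DESeq2). SLC20A1, a phosphate importer, rose by 0.58, and ANKH, which raises extracellular pyrophosphate, by 0.36 by the authors' deposited table (adjusted p of 1.51e-04 and 0.00538 by DESeq2). LRRC8A, the essential subunit of the volume-regulated anion channel, rose by 0.42 by the authors' deposited table (adjusted p of 1.95e-05 by DESeq2). The connexin GJB2 fell by 0.61 by the authors' deposited table (SE 0.24, adjusted p of 0.04 by DESeq2).

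Of 12 tested P2 receptors for extracellular nucleotides, 0 rose by DESeq2, also at an unadjusted p under 0.05, and 2 fell. P2RX7, the ATP-gated channel that opens at high ATP, averaged 98.1 normalized counts in shNPTX1_3, 86.9 in shNPTX1_4 and 134 in shCTRL by the authors' deposited table (log2 fold change -0.56, SE 0.19, adjusted p of 0.0149 by DESeq2). The other was P2RY13, an ADP receptor named here after its values were seen because it lay under 2 CPM, averaging 12.8, 8.15 and 19.7 normalized counts in shNPTX1_3, shNPTX1_4 and shCTRL by the authors' deposited table.

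Downstream of the adenosine receptors, 2 of 16 G protein and adenylyl cyclase genes rose and 3 fell. GNAS, the stimulatory G protein used by A2A and A2B, averaged 4413 normalized counts in shNPTX1_3, 4411 in shNPTX1_4 and 5498 in shCTRL by the authors' deposited table (log2 fold change -0.32, SE 0.08, adjusted p of 7.06e-04 by DESeq2). Its relative GNAL fell by 0.56 and the cyclase ADCY1 by 0.53 by the authors' deposited table (adjusted p of 2.24e-05 and 0.00971 by DESeq2). Among the inhibitory G proteins, GNAI1 and GNAI3 rose by 0.44 and 0.26 by the authors' deposited table (adjusted p of 6.82e-04 and 0.00899 by DESeq2), and GNAI3 lost its call with equal totals (adjusted p = 0.0605). The inhibitory GNAI2 and GNAO1 did not pass the test, with log2 fold changes of 0.06 and -0.08 by the authors' deposited table (adjusted p of 0.759 and 0.821 by DESeq2). The stimulatory GNAS and GNAL were thus called lower in the tumours in which ADORA2B was called higher.

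ENPP1 also acts on cGAMP, the product of cGAS. Of 10 tested genes of cGAMP synthesis, transport and STING signalling, 0 rose and 0 fell by the adjusted p of DESeq2, and 0 were higher and 1 lower at an unadjusted p under 0.05. This list holds LRRC8C, LRRC8D and LRRC8E, but LRRC8A of the same family was counted with the ATP-release genes. There it was called higher (log2 fold change 0.42, adjusted p of 1.95e-05 by DESeq2), so the count of 0 depends on that placement. cGAS (listed as MB21D1) averaged 952 normalized counts in shNPTX1_3, 959 in shNPTX1_4 and 984 in shCTRL by the authors' deposited table (log2 fold change -0.04, 95% interval -0.21 to 0.13, adjusted p of 0.768 by DESeq2). STING (listed as TMEM173) averaged 184, 100.3 and 129.6 normalized counts in shNPTX1_3, shNPTX1_4 and shCTRL by the authors' deposited table (adjusted p of 0.864 by DESeq2).

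**Figure D4:**
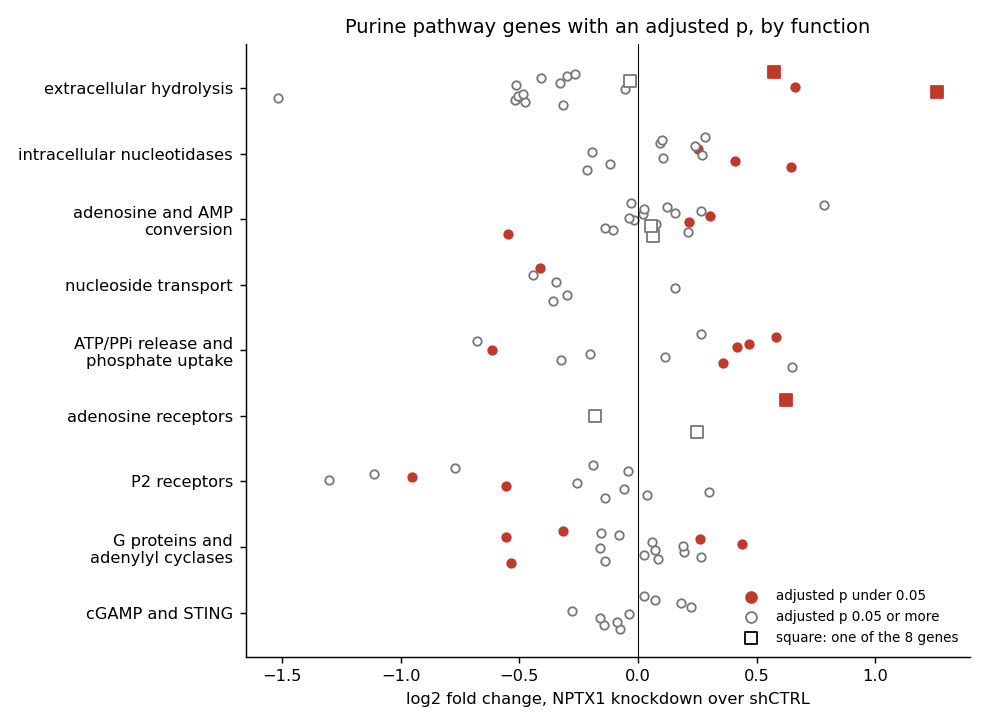
Each symbol is a gene with an adjusted p, placed by its log2 fold change, knockdown over shCTRL, by the authors' deposited table (horizontal axis) and grouped by function (rows). Filled symbols passed an adjusted p of 0.05, and squares mark the 8 genes, with ENPP1 farthest right at 1.26 and 0 filled symbols in the cGAMP and STING row. LRRC8A, which was called higher, is placed in the ATP release row.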

How the data were processed

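Norgen purification of total RNA was followed by TruSeq library preparation, per the labels' protocols. Tools named in the submitters' processing notes, with no role stated, are DESeq2 1.24, STAR 2.7.6a, MultiQC 1.9 and featureCounts 2.0.0, with builds hg19 and mm39; annotation, strand setting and handling of host reads are not stated. Per the file headers, the authors deposited group means as a signal (counts divided by size factors and averaged), a log2 fold change with its SE, a Wald score, a p-value and an adjusted p. The deposited log2 fold change sets all knockdown against control libraries, since its median gap to the log2 ratio of those means was 0.00401 over 16439 rows at 10 normalized counts or more.

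Computed here (Python 3.11.15, pandas 2.3.3, scipy 1.17.1) were hairpin ratios with a pseudocount of 1, which understates changes of low genes, and 95% intervals. Also computed were counts per 1000000 of the mean total (CPM, where 2 CPM is 38.6 normalized counts) and adjusted p-values after rescaling. The code of that last step was run on simulated fold changes, which cannot show whether the rescaling suits these libraries. Of the rows, 107 without a usable name (0.387% of normalized counts) were left out of counts. The members and lists were chosen with earlier results of these data known. Named genes were the 8, up to 6 called genes per list at 2 CPM or more by absolute log2 fold change, ADORA3, NPTX1, markers, and the 3 nearest patterns to ENPP1 and to NT5E. Of these named genes, 1 that the counts include is not reported here.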

Additional observations from a re-analysis of the deposited data

How the results depend on the processing

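Of 28 named genes, 23 kept their call under equal totals, centring on the median gene (a shift of -0.02 in log2), adjustment over every gene with a p, and adjustment over genes at 2 CPM or more. These included ENPP1, NT5E and ADORA2B, whose log2 fold changes with equal totals were 1.20, 0.51 and 0.56. Among the other 5, ENTPD6, AHCYL1 and GNAI3 lost their calls with equal totals, where the same amount is taken from every log2 fold change, and ADA2 lost its call when adjusted over every gene with a p (adjusted p = 0.0501). The counts of 3 higher and 0 lower among the 8 genes held under all 4 settings. The other purine genes numbered 12 higher and 8 lower, and 8 and 12 with equal totals. ENPP1 was at least 2-fold higher in each hairpin group without a pseudocount, with a pseudocount of 5 and with equal totals. No paired analysis was possible because the table holds group means, and for the same reason leaving out each library was not run. A single library could therefore set a group mean, and ADORA3, listed at about 1 normalized count, is too low for a comparison at this depth.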

Other observations

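The means of 3 exocrine pancreas genes were highest in 1 hairpin group, and 1 of these 3 was called by DESeq2. The trypsinogen gene PRSS1 averaged 46.1 normalized counts in shNPTX1_3, 0.909 in shNPTX1_4 and 1.02 in shCTRL by the authors' deposited table (adjusted p of 0.0282 by DESeq2). The carboxypeptidase CPA1 had 40.9, 0 and 1.62 and did not pass the test (SE of the log2 fold change 3.05, adjusted p of 0.418 by DESeq2). The elastase gene CELA3A had 20.0, 0.185 and 0 normalized counts in the same order of groups by the authors' deposited table and did not pass either (SE 3.17, adjusted p of 0.158 by DESeq2). ADORA2B was also higher with shNPTX1_3 than with shNPTX1_4, at 914 against 581 normalized counts by the authors' deposited table. Whether these values come from 1 library was not tested.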
